A study of Homo sapiens with 6 samples.

Results

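Transcripts of 10 genes of the NF-kappaB pathway were followed in Huh-7 cells, an established human hepatocellular carcinoma line, with and without stable overexpression of RAC3, a small GTPase of the Rac family. The genes are the 5 subunits (NFKB1, NFKB2, RELA, RELB and REL), the inhibitors NFKBIA and NFKBIE, the kinase IKBKB, and the feedback targets TNFAIP3 and BIRC3. They were taken by symbol from the 20332 genes of the count table, from general knowledge but with earlier results of these data known. RNA was sequenced from 3 samples of a line made to overexpress RAC3 by lentivirus and from 3 samples of the corresponding negative control (NC), whose genotype is labelled WT. All 6 samples come from a single cell line, so the comparison describes that line only. NFKB1 was one of the transcripts that the study also assayed by qRT-PCR, as an anti-apoptotic marker. The study reported it lower after RAC3 knockdown and higher in Huh-7 cells overexpressing RAC3. The sequencing asks how the NF-kappaB family was transcribed in the same kind of cells.

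NF-kappaB is a family of dimeric transcription factors held in the cytoplasm by IkappaB proteins. When a cytokine or pattern receptor is engaged, the IkappaB kinase complex marks IkappaB for destruction, the dimers enter the nucleus and bind kappaB sites, and among the genes they switch on are their own inhibitors and several of their own subunits. In the liver the pathway is known for the acute phase response and for protecting hepatocytes from death by tumor necrosis factor.

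The short sequences below are matches to a 10-base kappaB motif (GGG, then any 2 bases, then TTTCC), searched on both strands, in windows from 250 bases before to 50 bases after a start site (RefSeq, GRCh38.p14). They are shown because the factor that these genes encode or restrain binds sites of this kind. Capitals mark the match, and each run is written 5′ to 3′ on the strand of the gene.
NFKB1: acgtcagtGGGAATTTCCagccagga
NFKB2, upstream start: gccgagaaGGGGCTTTCCcggccctg
NFKB2, downstream start: gtattttcGGGACTTTCCtaagctgc
REL: cagccgcgGGAAATTCCCctcccgcc
NFKBIA: actggcttGGAAATTCCCcgagcctg
TNFAIP3, distal: gtgactttGGAAAGTCCCgtggaaat
TNFAIP3, proximal: agtcccgtGGAAATCCCCgggcctac
BIRC3: tgggtcatGGAAATCCCCgagtgggt

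The printed runs lie at chr4:102501302-102501327 (plus strand) for NFKB1, at chr10:102394492-102394517 and chr10:102395676-102395701 (plus) for windows of separate NFKB2 starts, at chr2:60881520-60881545 (plus) for REL and at chr14:35404813-35404838 (minus) for NFKBIA. The TNFAIP3 runs lie at chr6:137867184-137867209 and chr6:137867196-137867221 (plus), and the BIRC3 run at chr11:102317277-102317302 (plus). Counted from the start site, the printed match covers bases -49 to -40 in NFKB1, -78 to -69 and -21 to -12 from their own starts in NFKB2, -46 to -37 in REL and -81 to -72 in NFKBIA. In TNFAIP3 the matches cover bases -67 to -58 and -55 to -46, and in BIRC3 the match is farther out, at -199 to -190. The NFKB2 labels upstream and downstream order only the starts with a match, since a window farther upstream held none. Windows were given for 7 of the 10 genes, and RELB, NFKBIE and IKBKB had no entry. Of the 11 windows of these genes, 7 held the motif, and neither of the RELA windows did, which says only that these letters are not in those windows. Of all 35116 windows of the same length, 1.91% held it. The looser kappaB consensus, which overlaps this motif, was matched in 7 of the 11 windows against 5.91% of all windows. A match is a description of the letters and was not tested for binding.

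The 6 samples had between 13855762 and 18199888 counts on genes, and 12941 genes had enough counts to be tested, all 10 NF-kappaB genes among them. RAC3 itself ranged from 31.4 to 35.6 CPM (counts scaled by TMM to a common library size) in the NC samples and from 225.4 to 239.6 CPM in the RAC3-overexpressing cells. In RAC3 samples 2 and 3 the genotype label reads RAC4 and RAC5 overexpression, whereas title and study methods give RAC3, so the results are also given without both. RAC3 was at 239.6 and 225.4 CPM in these samples, beside 232.6 CPM in the RAC3 sample 1. No pair of samples agreed within sampling noise. All 9 hepatocyte markers were expressed, with summed levels of 4394 to 4540 CPM in the NC samples and 4380 to 4838 CPM in the RAC3-overexpressing cells. Of 5 lymphocyte markers none was tested and CD2, MS4A1 and NKG7 had 0 counts throughout. Of 6 macrophage markers CD163 and TYROBP were at 0, and the sum of 37.7 to 46.5 CPM against 32.3 to 34.9 CPM was nearly all CD14. Of 4 endothelial markers 1 was tested. The 6 stellate cell or fibroblast markers summed to 230.8 to 247.7 CPM and 271.5 to 284.1 CPM, with DCN and ACTA2 below 10 counts in each sample. Most of this sum was LUM, with means of 154.8 and 180.6 CPM. The 4 tested markers went both ways. LUM (log2 fold change 0.22) and COL1A2 (0.51) were higher with RAC3 overexpression and COL1A1 (-0.22) was lower, each at an adjusted p below 0.05 (edgeR). PDGFRB (-0.71) did not reach this threshold. The part of these other markers in the results was not tested. In bulk RNA, fewer cells of a type and less RNA per cell cannot be told apart.

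With RAC3 overexpression, BIRC3 and REL were higher, NFKBIE was lower, and the other 7 genes did not pass the test. BIRC3, an inhibitor of apoptosis protein that carries a ubiquitin ligase, rose 1.82-fold, and REL, the c-Rel subunit known mainly from lymphoid cells, rose 1.29-fold. NFKBIE, which encodes IkappaB epsilon, was 0.764 times its control level. At an adjusted p-value below 0.05 (quasi-likelihood test of edgeR, Benjamini-Hochberg), 3 of the 10 genes passed, beside 28.5% of all genes tested. By direction, 2 were higher, where 13.3% of all genes were, and 1 was lower, where 15.3% were. At the thresholds of the study's methods (fold change above 1.5 in either direction and unadjusted p below 0.05) BIRC3 alone passed, beside 4.68% of all genes, of which 1.68% were higher and 2.99% lower. The groups did not overlap for BIRC3, REL and NFKBIE, and they did not overlap for 42.5% of all genes tested. The median log2 fold change of the 10 genes was -0.01, with 4 above and 6 below 0, and that of all genes was 0.0036. The share of NF-kappaB genes that passed was near the share of all genes, so the counts single out no feature of the group.

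**Figure D1:**
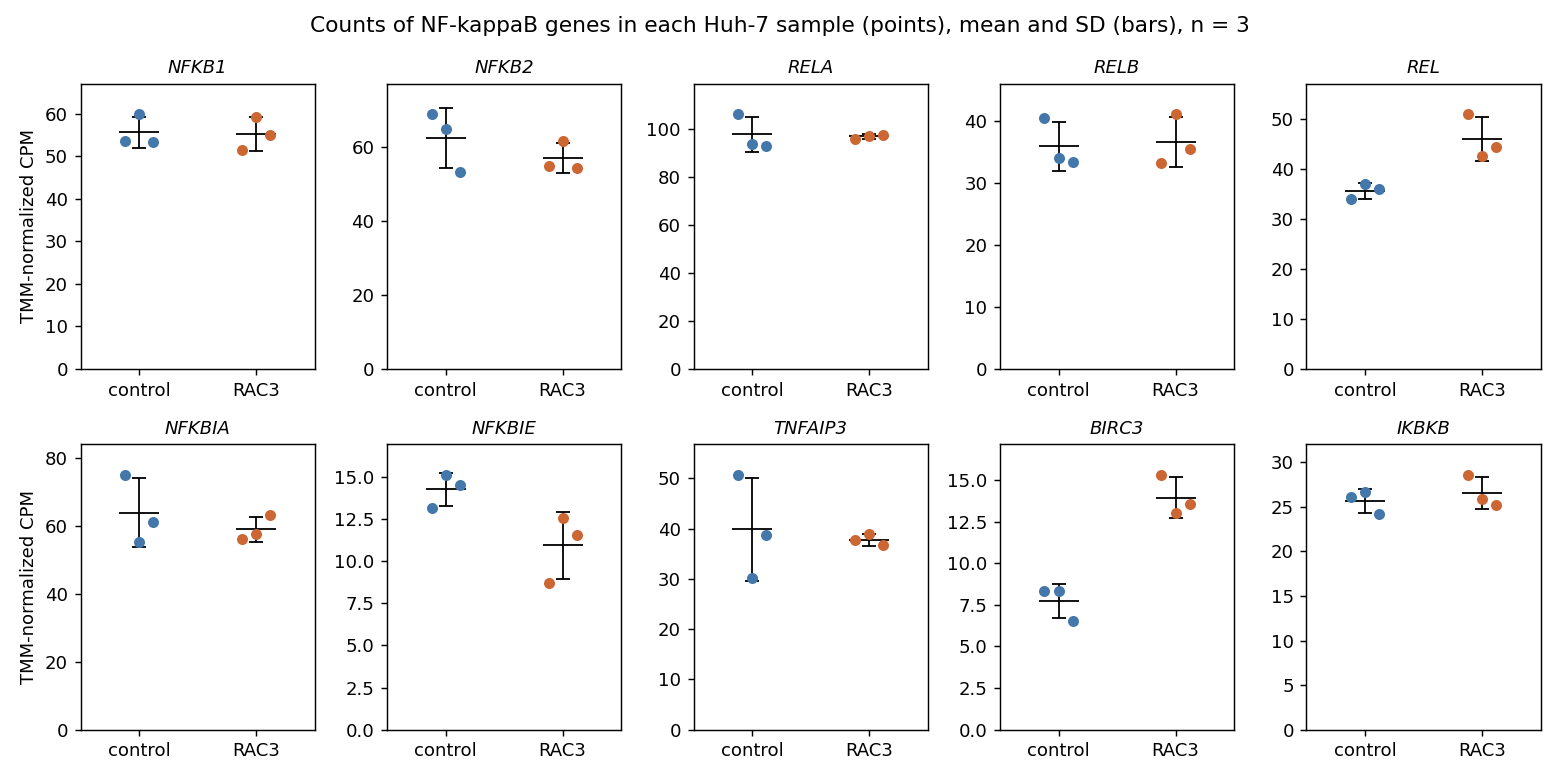
TMM-normalized CPM of the 10 NF-kappaB genes in each sample (points; blue, negative control; orange, RAC3 overexpression), with the mean and SD of 3 samples (bars) and a vertical axis from 0 in each panel. The orange points lie above all blue points for REL and BIRC3 and below them for NFKBIE, and the groups overlap in the other 7 panels.

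The subunits are taken first. NFKB1 encodes p105, the precursor of the p50 subunit that pairs with RELA in the classical dimer (ENSG00000109320, chromosome 4 from 102501329 to 102617302, plus strand, GRCh38). Its level was 53.7, 59.9 and 53.4 CPM in the NC samples and 51.4, 59.3 and 55.0 CPM in the RAC3-overexpressing cells. The samples interleaved, with an NC sample highest and a RAC3 sample lowest of the 6. Between the groups NFKB1 changed by -0.01 on the log2 scale (standard error 0.0684, adjusted p = 0.93, edgeR's quasi-likelihood test). The 95% interval of -0.15 to 0.13 corresponds to a fold change between 0.899 and 1.10. The rise that the study reported by qRT-PCR in RAC3-overexpressing Huh-7 cells was not seen here, and the difference between the assays was not tested.

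RELA encodes p65, the subunit with the main activation domain of the classical dimer (ENSG00000173039, chromosome 11 from 65653596 to 65663094, minus strand, overlapped on the opposite strand by the long noncoding RNA AP001362.2). It was measured at 106.0, 93.7 and 92.9 CPM in the NC samples and at 95.7, 97.0 and 97.4 CPM with RAC3 overexpression. The NC sample 1 was the highest sample and the other 2 controls were the lowest, with the 3 RAC3 samples close together between them. The log2 fold change was -0.01 (95% interval -0.13 to 0.11, adjusted p = 0.91).

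NFKB2 encodes p100, the precursor of p52, and RELB its partner in the alternative pathway. NFKB2 (ENSG00000077150, chromosome 10 from 102394110 to 102402529, plus strand) had 68.8, 64.9 and 53.2 CPM in the NC samples and 54.8, 61.6 and 54.3 CPM in the RAC3-overexpressing cells. The NC sample 3 was lower than all RAC3 samples, and the other controls were above them. The log2 fold change was -0.13 (95% interval -0.29 to 0.04, adjusted p = 0.26), and without the NC sample 3 it was -0.24 and passed (adjusted p = 0.025, edgeR's quasi-likelihood test). RELB (ENSG00000104856, chromosome 19 from 45001430 to 45038198, plus strand) had 40.5, 34.0 and 33.4 CPM in the NC samples and 33.3, 41.2 and 35.5 CPM with RAC3 overexpression. In each group 1 sample stood near 40 CPM and the others lay between 33.3 and 35.5 CPM, and the log2 fold change was 0.03 (95% interval -0.15 to 0.22, adjusted p = 0.83).

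REL was the subunit that differed (ENSG00000162924, chromosome 2 from 60881521 to 60931610, plus strand). Its level was 34.0, 37.0 and 36.1 CPM in the NC samples and 51.0, 42.6 and 44.5 CPM in the RAC3-overexpressing cells. All 3 RAC3 samples were above all controls, and the smallest gap between the groups was wider than the whole range of the controls. The means were 35.7 ± 1.57 and 46.1 ± 4.43 CPM (SD, n = 3), a log2 fold change of 0.37 (standard error 0.0758, 95% interval 0.21 to 0.53, adjusted p = 0.0013 by edgeR's quasi-likelihood test). It passed under all 18 alternatives tried, with log2 fold changes from 0.22 to 0.52 and adjusted p-values up to 0.049. Without the RAC3 samples 2 and 3 the value was 0.52, with the lone RAC3 sample assumed to vary like the controls. Without the RAC3 sample 1, the highest of the 3, it was 0.29 (adjusted p = 0.012, edgeR's quasi-likelihood test). In the annotation the small nuclear RNA pseudogene RNU4-51P and the noncoding RNA AC010733.2 overlap REL on the same strand. Reads from the overlap cannot be told apart from REL in a count per gene. The use of strand in counting is not given, so this may also hold for the opposite-strand overlaps of RELA and TNFAIP3.

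To compare levels between genes, the FPKM values of the authors (fragments scaled by transcript length and library size) were used, since they are per length. Among the subunits in the NC samples RELA was the most abundant with 48.1 ± 2.91 FPKM, followed by NFKB2 with 20.0 ± 2.50, RELB with 17.1 ± 1.80, NFKB1 with 14.2 ± 0.975 and REL with 3.24 ± 0.0693 (SD, n = 3). NFKB2 and RELB overlapped across samples, and the other neighbours in this order did not. NFKBIA, with 40.2 ± 5.92 FPKM (SD, n = 3), overlapped with RELA in these samples. The order of the subunits was the same with RAC3 overexpression, from RELA with 42.5 ± 1.17 FPKM to REL with 4.35 ± 0.411.

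REL made up 2.94%, 3.19% and 3.36% of the summed FPKM of the 5 subunits in the NC samples and 5.08%, 3.90% and 4.40% in the RAC3-overexpressing cells. Its share was higher in all 3 RAC3 samples, with means of 3.16% ± 0.214 and 4.46% ± 0.591 (SD, n = 3). The difference of 1.29 percentage points gave p = 0.10 in a two-sided exact permutation test (0.25 after Benjamini-Hochberg adjustment over the 5 subunits), and 0.10 is the smallest p that 3 samples against 3 allow. From CPM divided by the longest annotated transcript the REL share was 3.92% and 5.09%, so the difference had the same sign and a similar size on both scales.

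The RELA share went from 46.9% ± 0.744 to 43.4% ± 0.849 (SD, n = 3) of the subunit FPKM, a difference of -3.52 percentage points (exact permutation p = 0.10, adjusted 0.25). On the scale of CPM per longest transcript it was 37.7% in both groups, with a difference of 0.0497 percentage points, so the RELA difference was present on 1 scale only. The length that links the deposited counts of RELA to its FPKM values was 2015, 1920 and 2023 bases in the NC samples and 2347, 2245 and 2368 bases in the RAC3 samples. The log2 ratio of these lengths, 0.22, was larger in size than that of 94.6% of 12898 genes, and the groups did not overlap, as was the case for 11.0% of these genes. For the other genes with large shifts the samples overlapped, with a log2 ratio of -0.17 for NFKBIE and -0.14 for BIRC3. The cause of the shift in RELA was not tested.

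Both inhibitors had values below 0, of which NFKBIE alone passed, and the difference between them was not tested. NFKBIA encodes IkappaB alpha, the inhibitor that is rapidly resynthesized after activation (ENSG00000100906, chromosome 14 from 35401511 to 35404749, minus strand). It had 75.0, 55.3 and 61.3 CPM in the NC samples and 56.3, 57.5 and 63.2 CPM with RAC3 overexpression. The controls spanned the whole range of the RAC3 samples, and the log2 fold change was -0.11 (95% interval -0.29 to 0.06, adjusted p = 0.34).

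NFKBIE (ENSG00000146232, chromosome 6 from 44258166 to 44265788, minus strand) rested on fewer reads, with 155 to 260 counts per sample. Its level was 13.2, 15.1 and 14.5 CPM in the NC samples and 8.72, 12.6 and 11.6 CPM in the RAC3-overexpressing cells. All RAC3 samples were below all controls, but the RAC3 sample 2 and the NC sample 1 were close. The means were 14.3 ± 0.988 and 10.95 ± 1.99 CPM (SD, n = 3), a log2 fold change of -0.39 (standard error 0.131, 95% interval -0.66 to -0.11, adjusted p = 0.033 by edgeR's quasi-likelihood test). The value stayed below 0 in all 18 alternatives but passed in only 9. Without the NC sample 2, the NC sample 3, the RAC3 sample 1 or the RAC3 sample 3 the log2 fold changes were -0.35, -0.38, -0.24 and -0.43, with adjusted p-values of 0.11, 0.076, 0.19 and 0.051. DESeq2 gave -0.39 (adjusted p = 0.077), library size alone as the scaling gave -0.33 (adjusted p = 0.060), and the deposited FPKM values gave -0.16 (adjusted p = 0.40, limma on log2(FPKM + 0.1)). Without the RAC3 samples 2 and 3 the value was -0.71 (adjusted p = 0.013).

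TNFAIP3 and BIRC3 are classical NF-kappaB targets that act back on the pathway. TNFAIP3 encodes A20, a ubiquitin-editing enzyme that ends signalling (ENSG00000118503, chromosome 6 from 137867188 to 137883312, plus strand, with AL357060.1 antisense to it). It had 50.6, 30.2 and 38.8 CPM in the NC samples and 37.6, 39.0 and 36.7 CPM with RAC3 overexpression. The controls held both the highest and the lowest value and the RAC3 samples were close together. The log2 fold change was -0.07 with a wide 95% interval of -0.32 to 0.17 (adjusted p = 0.69).

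BIRC3 encodes cIAP2, which adds ubiquitin to signalling proteins at the tumor necrosis factor receptor (ENSG00000023445, chromosome 11 from 102317450 to 102339403, plus strand). It had 8.31, 8.32 and 6.52 CPM in the NC samples and 15.3, 13.0 and 13.5 CPM in the RAC3-overexpressing cells, from 116 to 125 counts per NC sample and 191 to 272 counts per RAC3 sample. The lowest RAC3 sample was well above the highest control. The means were 7.72 ± 1.04 and 13.9 ± 1.21 CPM (SD, n = 3), a log2 fold change of 0.86 (standard error 0.132, 95% interval 0.59 to 1.14, adjusted p = 8.3e-05 by edgeR's quasi-likelihood test). It passed under all 18 alternatives, with log2 fold changes from 0.68 to 1.02 and adjusted p-values from 4.6e-07 to 0.0044. The log2 fold change was 0.99 without the RAC3 samples 2 and 3. Without the RAC3 sample 1 it was 0.79 (adjusted p = 0.0015, edgeR's quasi-likelihood test). BIRC3 was the least abundant of the 10 genes per length in the NC samples, with 1.91 ± 0.0207 FPKM, and reached 3.99 ± 0.592 FPKM (SD, n = 3), where it overlapped with REL.

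BIRC2, which encodes the closely related cIAP1, had 27.3 ± 1.06 CPM in the NC samples and 30.4 ± 0.815 CPM (SD, n = 3) with RAC3 overexpression. Its log2 fold change was 0.15 (95% interval -0.00 to 0.31) and it did not pass (adjusted p = 0.13). How reads shared by the 2 paralogs were counted is not given in the sources used here, and the difference between their changes was not tested.

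IKBKB encodes IKK2, the catalytic subunit that phosphorylates the IkappaB proteins (ENSG00000104365, chromosome 8 from 42271302 to 42332653, plus strand). It had 26.1, 26.7 and 24.2 CPM in the NC samples and 28.6, 25.9 and 25.3 CPM with RAC3 overexpression. The groups overlapped, and the log2 fold change was 0.05 (95% interval -0.12 to 0.23, adjusted p = 0.67). Per length the kinase, TNFAIP3 and NFKBIE stood side by side in the NC samples with 8.20 ± 0.671, 8.78 ± 2.09 and 7.73 ± 0.313 FPKM (SD, n = 3), and neighbours in this order overlapped.

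**Figure D2:**
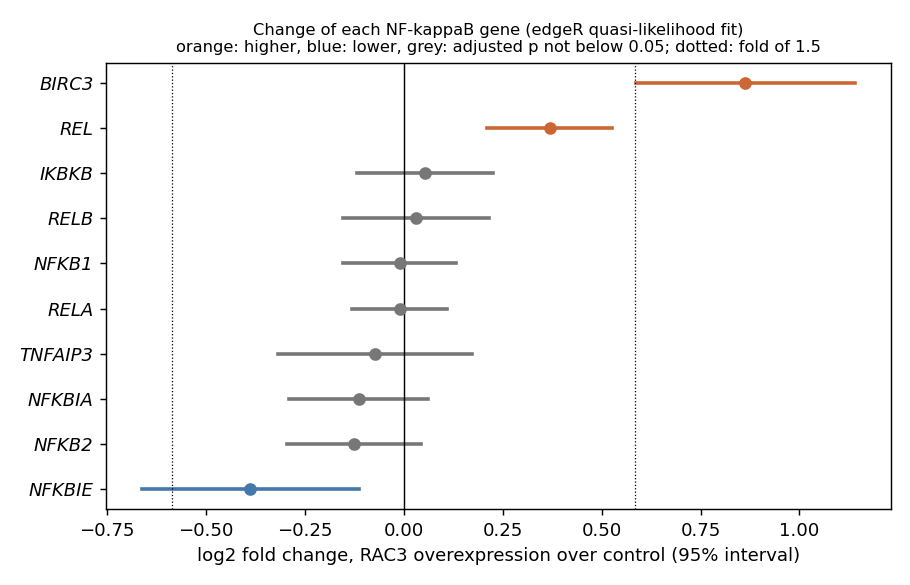
Log2 fold change of each gene, RAC3 overexpression over negative control, with its 95% interval from the edgeR quasi-likelihood fit (points and horizontal lines; orange higher, blue lower, grey adjusted p not below 0.05; dotted lines mark a fold change of 1.5). Intervals of 7 genes include 0, the REL interval ends at 0.53 and the BIRC3 interval starts at 0.59.

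The 104 other genes of the pathway were sorted by role into 6 lists, of which 73 genes could be tested and 34 passed, 18 higher and 16 lower. This is 46.6% of those tested, beside 28.5% of all genes. Their median log2 fold change was 0.05 and that of all genes 0.0036. Without the RAC3 sample 1, 11 genes were higher and 12 lower, while 20.2% of all genes passed in that fit. Without the RAC3 samples 2 and 3, 12 were higher and 11 lower, beside 18.7% of all genes.

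**Figure D3:**
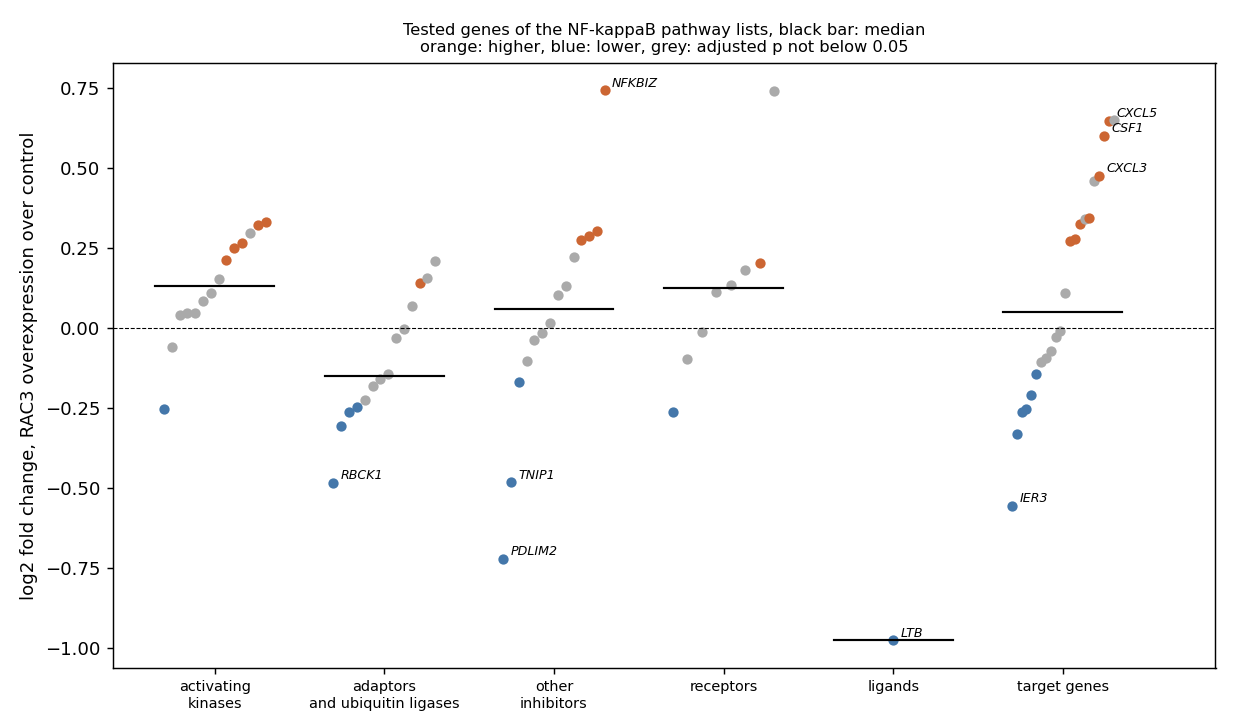
Log2 fold change, RAC3 overexpression over negative control, of the 73 tested genes in the 6 pathway lists (points, ordered by value within a list; orange higher, blue lower, grey adjusted p not below 0.05; black bars, medians). Each list with more than 1 tested gene holds both orange and blue points, and its median lies between -0.15 and 0.13.

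Of 14 activating kinases and their partners 5 were higher and 1 was lower, with a median log2 fold change of 0.13. Those that passed are 42.9% of the list, beside 28.5% of all genes, of which 13.3% were higher and 15.3% lower. The kinase RIPK1, which relays the tumor necrosis factor receptor signal, had 26.6 ± 1.76 CPM in the NC samples and 33.4 ± 0.966 CPM with RAC3 overexpression (log2 fold change 0.33, adjusted p = 0.0033). TBK1, a kinase related to the IkappaB kinases, changed by 0.25 (adjusted p = 0.013), and CHUK, the partner of IKBKB in the kinase complex, by 0.27 (adjusted p = 0.022). IRAK1, which acts below the interleukin 1 and Toll-like receptors, fell by 0.25 on the log2 scale from 226.2 ± 12.2 to 189.7 ± 17.1 CPM (SD, n = 3, adjusted p = 0.0028, edgeR). After removal of the GC trend described below RIPK1 kept its value (0.34), and TBK1 (0.11), CHUK (0.09) and IRAK1 (-0.06) no longer passed. TBK1 also lost its call without the RAC3 sample 1 (0.20), CHUK without the NC samples 1 (0.18) or 2 (0.28) or the RAC3 samples 1 (0.20) or 3 (0.28), and RIPK1 without the RAC3 samples 2 and 3 (0.32, adjusted p = 0.055, edgeR). On log2(FPKM + 0.1) CHUK had 0.33 (adjusted p = 0.069, limma) and IRAK1 -0.18 (adjusted p = 0.084), so the calls were lost while the CHUK value was not smaller.

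Of 14 adaptors and ubiquitin ligases 1 was higher and 4 were lower, with a median of -0.15. Together 35.7% of this list passed, beside 28.5% of all genes. RBCK1, a subunit of the complex that builds linear ubiquitin chains, was lower with 126.6 ± 7.36 CPM against 176.9 ± 7.40 CPM in the NC samples (log2 fold change -0.48, adjusted p = 2.0e-06). RNF31, the catalytic subunit of this complex, changed by -0.25 (adjusted p = 0.012) and the adaptor TRAF4 by -0.31 (adjusted p = 4.6e-04). The conjugating enzyme UBE2N was higher by 0.14 (adjusted p = 0.048) and lost its call in 11 of 18 alternatives, among them the omission of any 1 sample (0.10 to 0.16). With the GC trend removed RBCK1 (-0.27) and TRAF4 (-0.18) passed and RNF31 (-0.07) did not, nor did RNF31 without the RAC3 sample 1 (-0.17). On log2(FPKM + 0.1) RNF31 had a value of similar size, -0.27, that did not pass (adjusted p = 0.083, limma).

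Of 14 further inhibitors 4 were higher and 3 lower, with a median of 0.06. Together 50% of this list passed, beside 28.5% of all genes. NFKBIZ, a nuclear IkappaB protein that steers the choice of target genes, rose from 36.1 ± 3.42 to 60.6 ± 1.87 CPM (log2 fold change 0.74, adjusted p = 4.2e-07). PDLIM2, a ubiquitin ligase for nuclear p65, fell by 0.72 on the log2 scale, from 32.8 ± 5.12 to 19.8 ± 1.54 CPM (adjusted p = 4.2e-05), and TNIP1, a partner of A20, fell by 0.48 (adjusted p = 3.2e-04). These 3 genes passed in all 18 alternatives. TAX1BP1, another A20 partner, and ZC3H12A, a ribonuclease that degrades inflammatory transcripts, were higher by 0.27 and 0.29, and NKIRAS2 was lower with a log2 fold change of -0.17. Without the RAC3 samples 2 and 3 ZC3H12A had 0.29 and did not pass (adjusted p = 0.061), and NKIRAS2 lost its call in 11 of 18 alternatives, among them the omission of the NC sample 1 (-0.13) or the RAC3 samples 1 (-0.16), 2 (-0.16) or 3 (-0.18). The classical inhibitor NFKBIB changed by 0.02 (adjusted p = 0.89).

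Most receptor and ligand genes had too few counts to be tested. Of 17 receptor genes 8 were tested, 1 was higher and 1 lower, which is 25% of those tested, beside 28.5% of all genes. IL1RAP, the coreceptor for interleukin 1, changed by 0.20 (adjusted p = 0.011) and TNFRSF12A by -0.26 (adjusted p = 0.017), and neither passed with the GC trend removed. IL1RAP also lost its call without the NC sample 2 (0.19) or the RAC3 sample 1 (0.16), and TNFRSF12A without the NC sample 1 (-0.14), the RAC3 sample 3 (-0.24) or the RAC3 samples 2 and 3 (-0.22). TLR2 met the thresholds of the study's methods but not the adjusted one, with 12 to 21 counts per NC sample and 27 to 33 counts with RAC3 overexpression (log2 fold change 0.74, adjusted p = 0.11). Of 9 ligands LTB alone was tested, with 35 to 64 counts per NC sample and 21 to 32 counts with RAC3 overexpression (log2 fold change -0.98, adjusted p = 0.025). The LTB call was lost in 7 of 18 alternatives, among them the omission of the NC sample 1 (-0.66), the RAC3 sample 1 (-0.87), the RAC3 sample 2 (-0.82) or the RAC3 samples 2 and 3 (-1.19). TNF had at most 6 and IL6 at most 4 counts in any sample.

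Of 36 established target genes 22 were tested, 7 were higher and 6 lower, with a median of 0.05. Together 59.1% of those tested passed, beside 28.5% of all genes. The higher genes included the mitochondrial superoxide dismutase SOD2, with 117.5 ± 2.47 CPM in the NC samples and 147.1 ± 3.34 CPM with RAC3 overexpression (log2 fold change 0.32, adjusted p = 5.6e-05). The chemokine CXCL5 rose by 0.65 (adjusted p = 1.1e-07) and the growth factor CSF1 by 0.60 (adjusted p = 7.7e-04). PTGS2, the inducible cyclooxygenase, changed by 0.65, with 23 to 59 counts per sample, and met only the thresholds of the study's methods (adjusted p = 0.091).

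The lower target genes included IER3, an early response gene, which fell by 0.56 on the log2 scale from 124.8 ± 7.56 to 84.8 ± 4.94 CPM (SD, n = 3, adjusted p = 1.4e-06, edgeR). GADD45B, a stress sensor, fell by 0.33 (adjusted p = 6.6e-05). BCL2L1, the apoptosis inhibitor BCL-XL, fell by 0.26 (adjusted p = 3.4e-05). BIRC3 and BCL2L1, both target genes that oppose cell death, changed in opposite directions. CXCL5, SOD2, CSF1, IER3, GADD45B and BCL2L1 passed in every alternative that gave a value. With the GC trend removed the values were 0.49 for CXCL5, 0.76 for CSF1, -0.41 for IER3, -0.17 for GADD45B and -0.14 for BCL2L1. SOD2 had no GC value and was not in that fit.

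The changes of all genes moved with the GC content of their transcripts. In 5 groups of genes of equal size, ordered from the lowest to the highest GC content, the median log2 fold change was 0.15, 0.09, 0.01, -0.09 and -0.18. BIRC3 (34.8% GC) and REL (38.7%) lie in the lowest of these groups, and NFKBIE (61.0%), NFKB2 (62.4%) and RELB (65.4%) in the highest. The genes with GC content between these, from TNFAIP3 (49.5%) to RELA (57.1%), were among those that did not pass.

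**Figure D4:**
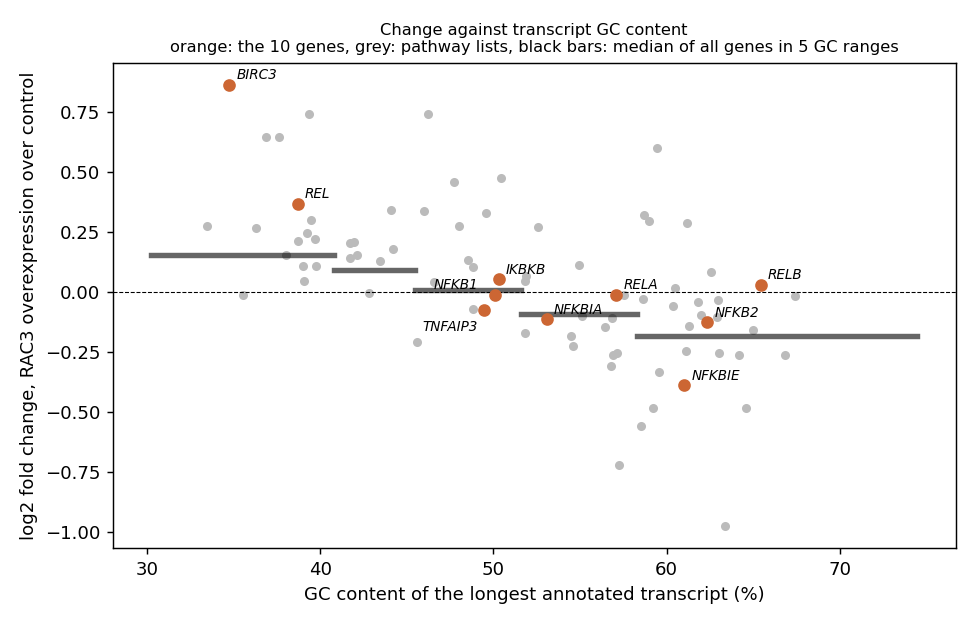
Log2 fold change, RAC3 overexpression over negative control, against GC content of the longest annotated transcript for the 10 NF-kappaB genes (orange, named) and the genes of the pathway lists (grey), with the median of all tested genes in 5 GC ranges (black bars). The bars step down from 0.15 to -0.18, BIRC3 and REL lie above the bar of their range, and NFKBIE lies below its own.

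After the trend of each library with GC content was removed, BIRC3 had a log2 fold change of 0.68 (adjusted p = 9.0e-04) and REL of 0.22 (adjusted p = 0.021), and both passed. NFKBIE had -0.22 and did not pass (adjusted p = 0.23), and RELB had 0.25 and passed (adjusted p = 0.019). NFKB1 (0.01), NFKB2 (0.06), RELA (0.12), NFKBIA (-0.04), TNFAIP3 (-0.06) and IKBKB (0.08) did not pass in this fit either. The number of NF-kappaB genes that passed was again 3 of 10, beside 20.9% of all genes. Whether the GC trend is technical was not tested.

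**Figure D5:**
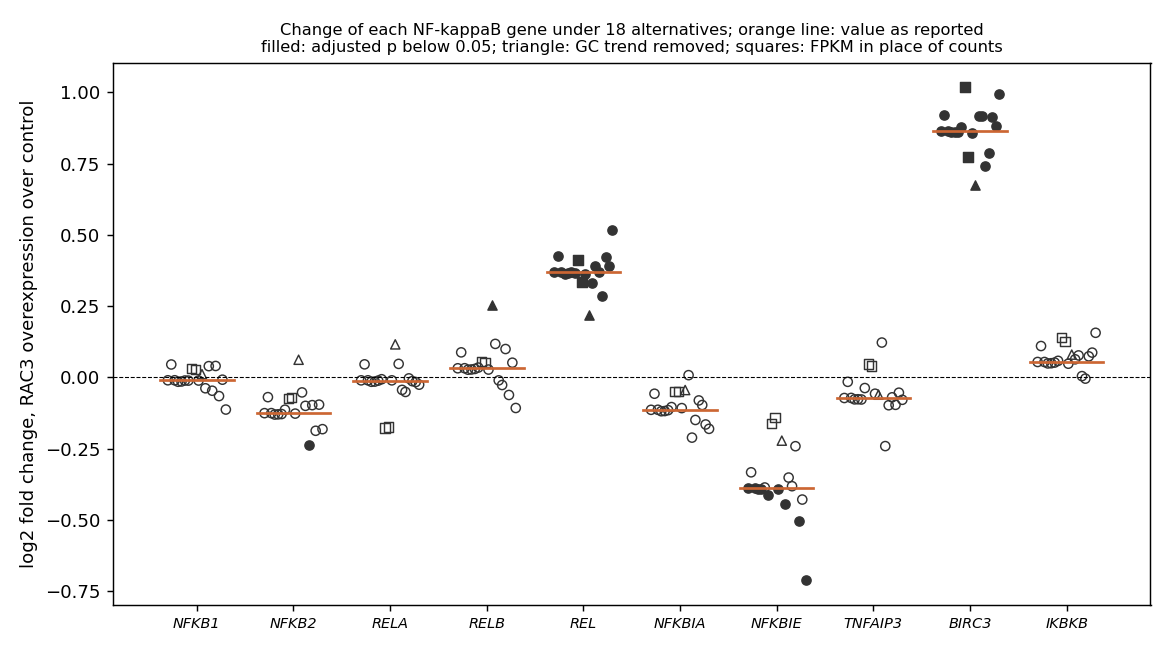
Log2 fold change of the 10 NF-kappaB genes, RAC3 overexpression over negative control, under 18 alternative analyses (filled, adjusted p below 0.05; triangles, GC trend removed; squares, FPKM in place of counts; circles, all others) with the reported value as an orange line. All symbols of REL and BIRC3 are filled, those of NFKBIE are filled in 9 cases, and 1 symbol each is filled for NFKB2 and RELB.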

How the data were processed

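Polyadenylated RNA was converted to libraries with the NEBNext Ultra kit and sequenced on an Illumina NovaSeq. The authors deposited raw counts per gene and sample and FPKM values per sample. The mean FPKM columns were not used. The submitters' processing notes name HISAT2, StringTie 1.3.1, Bowtie2 2.2.8 and DESeq2 without their roles, and the genome build, the annotation and the use of strand in counting are not given in the sources used here. Samples were grouped by title. The study's methods call the 3 RNA samples of a group independent but do not say whether they were separate cultures, so p-values measure the spread between these samples, which may be technical.

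The test on the counts was run with edgeR 4.0.16 (R 4.3.3): the genes left by filterByExpr (12941) were scaled by TMM and tested by the two-sided quasi-likelihood F test without covariates, with Benjamini-Hochberg adjustment over all genes tested. The biological coefficient of variation was 0.0533. A count of 0 allows up to 3 counts (0.167 to 0.215 CPM), which covers counting error only. The steps were tested on simulated data. The alternatives were DESeq2 size factors, library size alone and upper quartile scaling, 2 other filters (only genes without any count removed, and at least 10 counts in every sample), DESeq2 1.42.0, limma-voom and limma 3.58.1 on log2(FPKM + 0.1) and log2(FPKM + 1), a term for the replicate number, removal of each library's GC trend (lowess, span 0.3, 12863 genes with a value), leaving out each sample in turn and, chosen after seeing the data, leaving out the RAC3 samples 2 and 3 together.

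The 10 genes and the pathway and marker lists were chosen with earlier results of these data known, from general knowledge. All 10 genes are named. From each pathway list the 3 genes with the smallest p in each direction among those that passed are named, and those past the thresholds of the study's methods, up to 5 in each direction. BIRC2, NFKBIB, TNF, IL6 and CD14 were named outside this rule. Gene positions and transcripts are from GENCODE release 29 (GRCh38, 20113 of 20332 identifiers matched), and start site windows from RefSeq (GRCh38.p14).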

Additional observations from a re-analysis of the deposited data

How the results depend on the processing

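BIRC3 and REL passed in each of the 18 alternatives. The counts of lower NF-kappaB genes fell from 1 to 0 with library size alone, DESeq2, both FPKM fits and the GC trend removed, and ranged from 0 to 1 when single samples were left out. Past the thresholds of the study's methods were 2 genes, not 1, without the RAC3 samples 2 and 3. Genes of the pathway lists that passed numbered 22 in both FPKM fits instead of 34, while the share of all genes that passed went from 28.5% to 16.7%. The higher ones ranged from 11 to 13 without single samples instead of 18. The lower ones were 8 in both FPKM fits, 9 with the GC trend removed and 11 to 16 without single samples instead of 16. The share of all genes that passed also fell, to 20.9% with the GC trend removed and 20.2% to 25.4% without single samples. Values of genes that did not pass changed sign as follows, with the cause not tested. NFKB1 had 0.0456 with library size alone, 0.0304 and 0.0286 in the FPKM fits (+ 0.1 and + 1), 0.0116 with the GC trend removed and -0.0652 to 0.0404 without single samples. RELA had 0.0461 with library size alone, 0.116 with the GC trend removed and -0.0507 to 0.0477 without single samples. NFKB2 had 0.0622 with the GC trend removed. RELB ranged from -0.0613 to 0.118 without single samples and was -0.107 without the RAC3 samples 2 and 3. NFKBIA ranged from -0.211 to 0.0082 and IKBKB from -0.004 to 0.0872 without single samples. TNFAIP3 had 0.0472 and 0.0405 in these FPKM fits and -0.24 to 0.12 without single samples. With library size alone the median over all genes was higher by 0.0564. The titles number the samples 1 to 3 in both groups, but deviations of samples with the same number from their group means correlated at -0.0873, -0.0455 and -0.0207 over 11221 genes, so the numbers were not taken as pairs. With the replicate number as a block BIRC3 (0.86), REL (0.36) and NFKBIE (-0.39) passed and 3261 genes passed in all, instead of 3691. Depth limits NFKBIE and BIRC3 most, with at most 260 and 272 counts per sample, and 31 genes of the pathway lists had too few counts to be tested.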

Other observations

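Other genes of the pathway lists that passed, named after their values were seen, were of several kinds. Among the ELR chemokines CXCL1 was lower with RAC3 overexpression, with 132.6 ± 9.31 CPM in the NC samples and 114.8 ± 4.20 CPM (SD, n = 3) in the RAC3-overexpressing cells (log2 fold change -0.21, adjusted p = 0.0084 by edgeR's quasi-likelihood test). CXCL8, which encodes interleukin 8, changed by 0.28 (adjusted p = 0.015) and CXCL3 by 0.47 (adjusted p = 0.021). CFLAR, which encodes the caspase 8 inhibitor c-FLIP, rose from 28.4 ± 0.504 to 35.9 ± 2.85 CPM (SD, n = 3, log2 fold change 0.34, adjusted p = 0.0024, edgeR). The interferon regulatory factor IRF1 changed by 0.27 (adjusted p = 0.010), and NINJ1 (-0.25) and complement C3 (-0.14) were lower. Of the remaining genes that passed, MAP3K7 (0.21), IKBKE (0.32) and NKIRAS1 (0.30) were higher and SHARPIN (-0.26) was lower. Their adjusted p-values by edgeR were 0.032, 0.039, 0.024 and 0.017. The 18 alternatives were not followed gene by gene for the genes of this paragraph. By GC content, CXCL8 (33.4%), MAP3K7 (38.7%) and NKIRAS1 (39.4%) lie in the lowest group and IKBKE (58.7%) and SHARPIN (66.9%) in the highest.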
